A study of Mus musculus with 2 samples.

Results

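The BCL2 family decides whether a cell keeps its mitochondrial outer membrane intact or opens it and dies. Its 10 best-known genes, Bcl2, Bcl2l1, Mcl1, Bax, Bak1, Bad, Bid, Bcl2l11, Pmaip1 and Bbc3, were followed in RNA that came down with FLAG-tagged Nanos2 from the embryonic mouse testis and in the RNA of the same tissue before precipitation. All non-control probes whose symbol, or older alias by gene ID, was one of these names were taken, which gave 18 probes for the 10 genes among 20161 named genes on the array. All 10 genes had at least 1 probe bright enough to test, and 16 of the 18 probes were tested.

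The tissue was the gonad of male MCH mice, taken at embryonic day 14.5, with the transgene Tg-Nanos2 enhancer-3xFLAG-Nanos2-3'UTR. It fell into 2 groups: FLAG IP, precipitated with Anti-FLAG M2-Agarose, and input, with no antibody. Both groups carried the same transgene and were whole gonads, so that germ cells and somatic cells were mixed in both, and the labels name the Nanos2 enhancer as what drives the tagged protein. No precipitation from gonads without the tag is analysed here, so the background of the antibody and resin was not measured. Each group had 2 one-colour Agilent arrays, biological duplicates by the series text, and with 2 arrays a group the p-values measure only the spread between these arrays. In whole tissue, fewer cells of a type and less RNA per cell cannot be told apart, and a value here is a share of each array's own signal, not an amount of RNA bound.

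Members of the family fall into 3 kinds. The pro-survival proteins BCL2, BCL-XL (from Bcl2l1) and MCL1 hold the effectors BAX and BAK in check, and the effectors, once freed, form pores that let cytochrome c out of the mitochondrion. The BH3-only proteins BAD, BID, BIM (from Bcl2l11), NOXA (from Pmaip1) and PUMA (from Bbc3) carry the death signal, by occupying the pro-survival proteins or by activating the effectors. In mice, lowered Bcl2l1 costs primordial germ cells their survival, loss of Bax spares germ cells that would otherwise die, and male germ cells without Nanos2, an RNA-binding protein that recruits deadenylation factors, are lost by apoptosis.

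Values are log2 of the processed signal divided by the 75th percentile of the array, so that 0 stands for a spot as bright as that percentile, and a log2 fold change is the FLAG IP mean minus the input mean. That percentile was a processed signal of 55.7 and 608 on the FLAG IP arrays, against 1026 and 1038 on the input arrays. FLAG IP replicate 1 was thus 10.9 times dimmer than FLAG IP replicate 2, and 42.7% of its spots were well above background, against 65.4% to 70.2% on the other 3 arrays. The median SD between the FLAG IP arrays was 0.30 over all genes tested and 0.27 over the 10 members, against 0.06 and 0.06 between the input arrays. Nanos2 itself, whose probe may read both the transgene and the endogenous gene, stood at 0.56 and 0.29 in FLAG IP, against -1.33 and -1.57 in input (log2 fold change 1.88 ± 0.20 SE, limma adjusted p = 0.00477).

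Of the 10 genes, 3 were called higher in FLAG IP than in input (Bcl2l1, Pmaip1 and Bbc3) and 3 lower (Bcl2, Bak1 and Bad), and 4 were not called (Mcl1, Bax, Bid and Bcl2l11). The call is limma's two-sided test at 0.05, adjusted by Benjamini and Hochberg's method over all 15266 genes tested. Among all genes tested, 28.0% were called higher and 25.4% lower, so the share of members called in either direction was close to that of any gene on the array. The median log2 fold change was -0.25 over the members and 0.07 over all genes. All 6 called members differed by 2-fold or more, and calls in both directions occurred among the pro-survival genes (1 higher, 1 lower) and among the BH3-only genes (2 higher, 1 lower). FLAG IP lay above both input arrays in 4 members and below both in 5, and only Bax overlapped; arrays that did not overlap were seen in 80.2% of all genes.

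**Figure D1:**
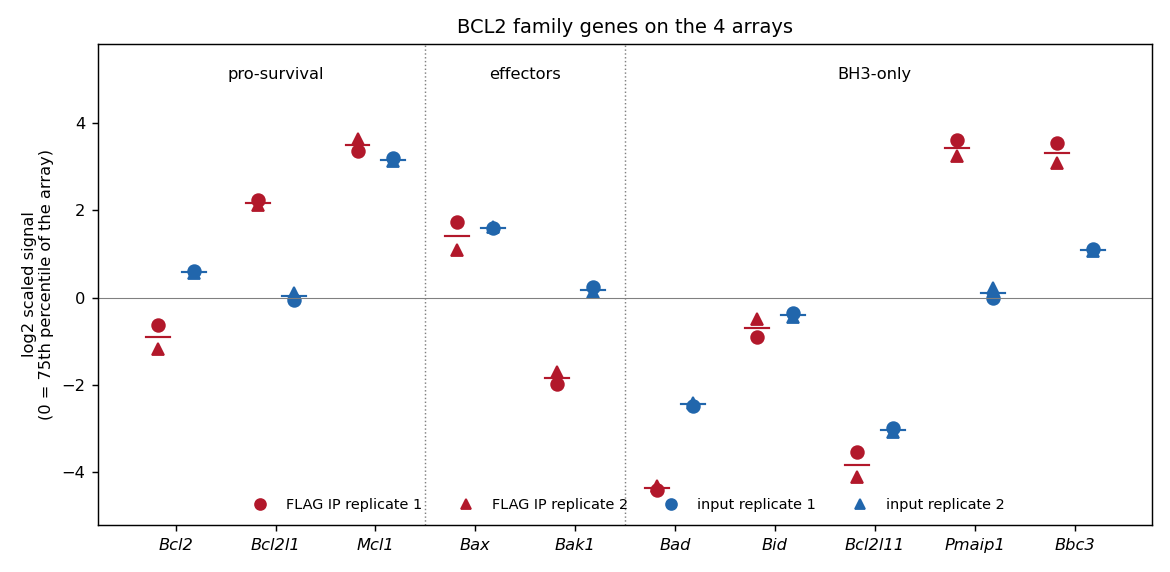
Log2 scaled signal of the probe that stands for each of the 10 BCL2 family genes (y axis; 0 is the 75th percentile of the array) on each of the 4 arrays, with FLAG IP in red left of input in blue, replicate 1 as circles, replicate 2 as triangles and the group mean as a bar. Pmaip1, Bbc3 and Bcl2l1 sit clearly higher in FLAG IP, Bak1, Bad and Bcl2 lower, and Bax overlaps; heights are comparable between groups within a gene, not between genes.

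Of the pro-survival genes, Bcl2l1 and Bcl2 lay on opposite sides of the input. Bcl2l1, whose long product BCL-XL protects the mitochondrion, stood at 2.23 and 2.11 in FLAG IP, against -0.05 and 0.11 in input, on a probe printed 10 times per array. The FLAG IP arrays were both high and close together, and the fold change was 2.14 ± 0.17 (SE) on the log2 scale, or 4.41-fold, with a limma adjusted p of 0.00381. The spots of that probe ran from 1.70 to 2.52 over the FLAG IP arrays, against -0.10 to 0.18 over the input arrays, so every spot of FLAG IP lay above every spot of input. In unscaled processed signal the probe read 263 and 2634 in FLAG IP, against 996 and 1119 in input; the dim FLAG IP array fell below the input before scaling.

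Both other Bcl2l1 probes were also higher in FLAG IP. Probe A_52_P510877 stood at -0.08 and 0.13 in FLAG IP, against -1.94 and -1.94 in input (log2 fold change 1.96 ± 0.18 SE, limma adjusted p over all probes = 0.00689). Probe A_51_P299454 stood at -1.69 and -2.11 in FLAG IP, against -3.41 and -3.32 in input (log2 fold change 1.47 ± 0.22 SE, limma adjusted p over all probes = 0.0132). The 3 Bcl2l1 probes thus spanned 1.47 to 2.14, and none of the 3 differences between them passed limma's test over all 10666 probe pairs (the largest, -0.67 ± 0.25, had an adjusted p of 0.232). That test called 0% of all pairs, with 2414 pairs at an unadjusted p under 0.05.

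Bcl2, the founding pro-survival member, was lower in FLAG IP on both tested probes. The probe that stands for the gene, printed 10 times per array, was at -0.62 and -1.18 in FLAG IP, against 0.60 and 0.56 in input. Its spots ran from -0.85 to -0.41 and from -1.22 to -1.11 on the FLAG IP arrays, against 0.53 to 0.65 and 0.40 to 0.62 on the input arrays, without overlap. The log2 fold change was -1.48 ± 0.25 (SE), with 2.79-fold more in input and a limma adjusted p of 0.0121. Probe A_51_P380013, designed to another Bcl2 transcript record, stood at -1.27 and -1.61 in FLAG IP, against -0.01 and -0.19 in input (log2 fold change -1.34 ± 0.21 SE, limma adjusted p over all probes = 0.0142). The third Bcl2 probe, A_52_P438280, was well above background on 1 input array and on no FLAG IP array, and was not tested. The Bcl2 call was lost when either input array was left out (limma adjusted p = 0.0835 without input replicate 1 and 0.0751 without input replicate 2), while the fold change stayed at -1.46 and -1.50. It was also lost under normexp background correction (limma adjusted p = 0.0711), where the fold change was -1.31, or -1.62 relative to the shift of all genes.

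Mcl1, the short-lived pro-survival member, differed little. It stood at 3.36 and 3.62 in FLAG IP, against 3.18 and 3.11 in input, and on its second probe at 1.56 and 1.43 in FLAG IP, against 1.17 and 1.19 in input. All 4 of these FLAG IP values lay above the input values of their probe, and the log2 fold changes of 0.34 ± 0.18 and 0.32 ± 0.17 (SE) did not pass the test (limma adjusted p = 0.179 by gene and 0.198 for the second probe). The 95% interval of the Mcl1 fold change ran from -0.15 to 0.84. Without FLAG IP replicate 1 the difference passed the test at 0.47 (limma adjusted p = 0.0107, with the lone array assumed to vary like the input). With normexp background correction its direction turned, at -0.20, or -0.51 relative to the shift of all genes, and it was not called (limma adjusted p = 0.756).

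The effectors did not rise in FLAG IP on the probes that stand for them. Bax, which waits in the cytosol, stood at 1.72 and 1.09 in FLAG IP, against 1.59 and 1.61 in input, on a probe printed 10 times per array. FLAG IP replicate 1 lay above the input and FLAG IP replicate 2 below it, and the log2 fold change of -0.19 ± 0.27 (SE) had a limma adjusted p of 0.585 and a 95% interval from -0.93 to 0.55. The SD between the Bax spots of one array was 0.19 and 0.03 on the FLAG IP arrays 1 and 2, against 0.05 and 0.02 on the input arrays, while the 2 FLAG IP arrays differed with an SD of 0.44. The sign turned with the array left out: Bax was at -0.50 without FLAG IP replicate 1 and at 0.12 without FLAG IP replicate 2. Such fits take the spread of the lone FLAG IP array from the input arrays.

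Bak1, the effector already seated in the outer membrane, was called lower on the probe that stands for it. That probe, A_51_P395011, was at -1.97 and -1.71 in FLAG IP, against 0.24 and 0.12 in input, a log2 fold change of -2.02 ± 0.18 (SE, limma adjusted p = 0.00398), with 4.06-fold more in input. The second Bak1 probe, A_52_P225207, went the other way, at 0.12 and -1.67 in FLAG IP, against -2.32 and -2.07 in input. Both FLAG IP arrays lay above the input there, but far apart from each other (SD 1.26), and its fold change of 1.42 ± 0.67 (SE) was not called (limma adjusted p over all probes = 0.161).

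The difference between the Bak1 probes was -3.44 ± 0.78 (SE), and limma's adjusted p over all probe pairs was 0.116. It kept its sign without either FLAG IP array, at -2.42 without replicate 1 and -4.47 without replicate 2. Both probes are designed to the same transcript record and were well above background on all 4 arrays. With the mean of the Bak1 probes in place of the brighter one, the log2 fold change was -0.30 and the call was lost (limma adjusted p = 0.461). It was also lost under normexp background correction (limma adjusted p = 0.0802), where the fold change was -1.28, or -1.59 relative to the shift of all genes. Across the array, 5941 genes had more than 1 tested probe. Calls in opposite directions occurred in 109 of these genes, and fold changes of unlike sign in 1640.

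**Figure D2:**
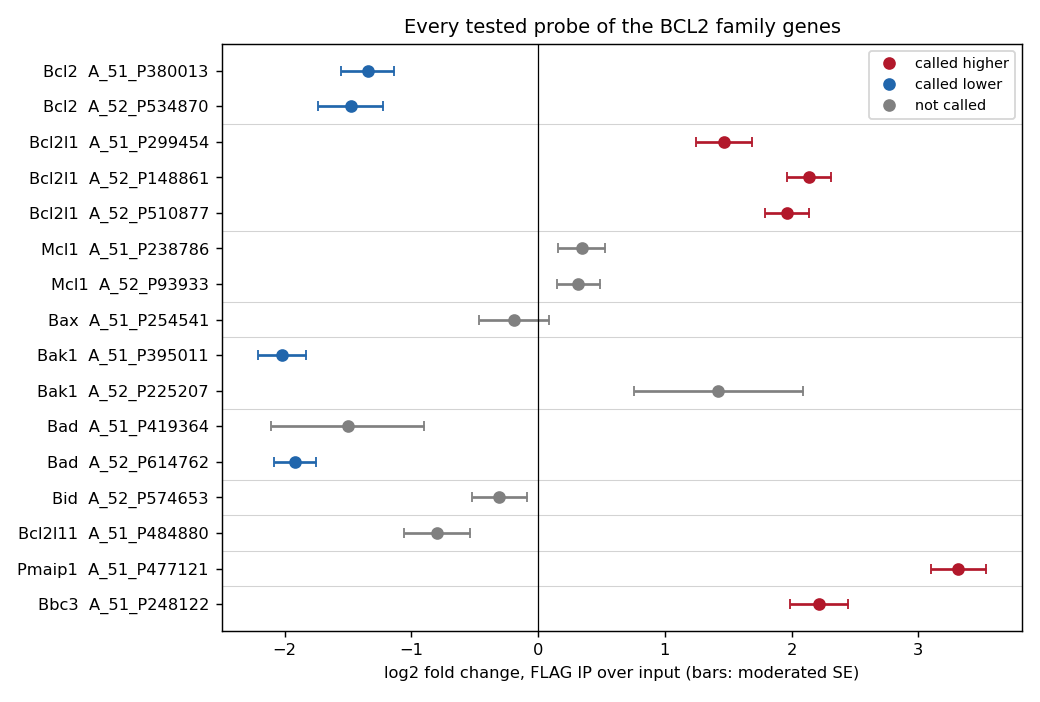
Log2 fold change of FLAG IP over input (x axis) for each of the 16 tested probes of the 10 genes, grouped by gene; points are fold changes, bars the moderated SE, and colour the call over all probes. The 3 Bcl2l1 probes and both tested Bcl2 probes keep to one side each, while the Bak1 probes stand at -2.02 and 1.42.

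The BH3-only genes held both the highest and nearly the lowest fold changes of the family. Pmaip1, which encodes NOXA, a BH3-only protein that binds MCL1, stood at 3.60 and 3.24 in FLAG IP, against 0.00 and 0.21 in input. Both FLAG IP arrays were about 3 log2 units or more above the input, and the log2 fold change was 3.32 ± 0.21 (SE), or 9.95-fold, with a limma adjusted p of 0.00381. It was higher than the fold change of 99.3% of the genes tested. Before scaling, Pmaip1 read a processed signal of 676 and 5761 in FLAG IP, against 1024 and 1204 in input.

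Bbc3, which encodes PUMA, a BH3-only protein that binds all pro-survival members, stood at 3.54 and 3.08 in FLAG IP, against 1.12 and 1.07 in input. The groups lay well apart, with a log2 fold change of 2.22 ± 0.22 (SE), or 4.64-fold, and a limma adjusted p of 0.00439. Pmaip1 and Bbc3 each had 1 probe, so neither value has a second probe beside it. Other scalings, filters, blocks and left-out arrays were also tried, and slide as a block was the same fit as leaving out input replicate 1. Bcl2l1, Pmaip1 and Bbc3 kept their call by gene in 14 of these 15 settings each, and lost it where the arrays were not scaled at all. Fitted by probe, over more features, the same probes kept their direction and also missed the threshold under normexp background correction (limma adjusted p over all probes = 0.0605 for Pmaip1 and Bbc3 and 0.0629 for Bcl2l1), with no filter on dim probes (just above the threshold, 0.0501 at most), and with slide as a block or without an input array (0.0898 to 0.102).

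Bad, a BH3-only protein that survival kinases silence by phosphorylation, was lower in FLAG IP. Its brighter probe stood at -4.40 and -4.31 in FLAG IP, against -2.48 and -2.40 in input, a log2 fold change of -1.92 ± 0.16 (SE, limma adjusted p = 0.00386). The processed signal was 2.63 and 30.6 in FLAG IP, against 184 and 196 in input, and only 1 of the 2 FLAG IP arrays was well above background there. On the other, FLAG IP replicate 1, the dimmest probe well above background stood at -2.77, above the value printed for Bad, so the agreement of the FLAG IP values rests on a spot at background. With normexp background correction the fold change of Bad was 0.24, or -0.07 relative to the shift of all genes, and was not called (limma adjusted p = 0.813). The second Bad probe was not well above background on either FLAG IP array, where it measured -4.59 and -6.22, against -3.93 and -3.87 in input. With each FLAG IP value raised to at least the dimmest value well above background on that array, the probe was 1.38-fold higher in input. This rests on FLAG IP replicate 2, since on replicate 1 that dimmest value (-2.77) lay above both input values. It is not a strict minimum, and the fit had a limma adjusted p over all probes of 0.119.

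Bid, which caspase-8 cleaves to link death receptors to the mitochondrion, stood at -0.90 and -0.50 in FLAG IP, against -0.34 and -0.45 in input. FLAG IP replicate 2 lay just under the input arrays, and the log2 fold change of -0.31 ± 0.21 (SE) was not called (limma adjusted p = 0.288, 95% interval -0.89 to 0.28). Bcl2l11, which encodes BIM, stood at -3.54 and -4.10 in FLAG IP, against -2.98 and -3.07 in input. Its log2 fold change of -0.80 ± 0.25 (SE) fell short of the threshold (limma adjusted p = 0.0596), and 1 of the 2 FLAG IP arrays was well above background. Its second probe was not well above background on any array. On FLAG IP replicate 1 the value of Bcl2l11 lay below the dimmest probe well above background there (-2.77), which was itself above both input values, so that array cannot show that Bcl2l11 was lower. It passed the test as lower under quantile normalization and under median centring. Without FLAG IP replicate 1 it was at -1.08 and without FLAG IP replicate 2 at -0.52, with the lone FLAG IP array assumed to vary like the input. With normexp background correction its direction turned, at 0.75, or 0.44 relative to the shift of all genes (limma adjusted p = 0.466).

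**Figure D3:**
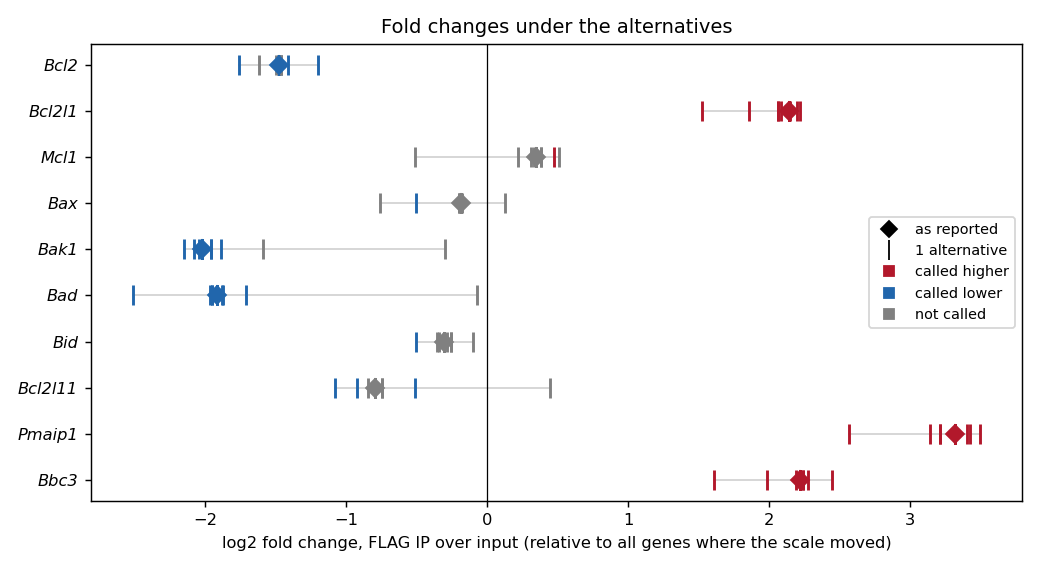
Log2 fold change of FLAG IP over input (x axis) for the 10 genes as reported (diamond) and under each alternative (ticks), coloured by call; where a scaling moved the median of all genes by more than 0.1, the value is relative to that shift. Calls come from the test of the value before that shift. Bcl2l1, Pmaip1 and Bbc3 stay above 1.5 in the values drawn, while ticks of Mcl1, Bax and Bcl2l11 fall on both sides of 0. Without scaling and with median centring, the shifted values equal the reported ones by construction. Before the shift, the values without scaling were -0.35 for Bcl2l1, 0.83 for Pmaip1 and -0.27 for Bbc3.

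The scaled signal of marker genes moved between the groups as well. The 8 germ cell markers summed to 120 and 136 in FLAG IP, against 72.1 and 74.1 in input (scaled signal, where 1 is the 75th percentile of the array). Of these 8, 3 were called higher, 1 lower and 4 not called. The calls over all genes tested, 28.0% higher and 25.4% lower, stand beside these and the marker counts below. All 7 Sertoli cell markers were lower, with sums of 8.14 and 8.94 in FLAG IP, against 45.5 and 44.2 in input. All 5 Leydig cell markers were lower (20.01 and 19.26 in FLAG IP, against 139 and 126 in input), as were all 4 interstitial mesenchyme markers (24.6 and 18.1 in FLAG IP, against 172 and 165 in input) and the 3 tested erythroid and 2 tested macrophage markers. Of 4 endothelium markers, 2 were lower and 2 were not called. The part of these cell types in the lower values of Bcl2, Bak1 and Bad, or in the higher values of Bcl2l1, Pmaip1 and Bbc3, was not tested.

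The rest of the family was called in both directions too. Of 18 other BCL2 family genes, 13 were tested, 4 of them called higher, 2 lower and 7 not called, with a median log2 fold change of 0.12. For comparison, 28.0% of all genes tested were called higher and 25.4% lower. Bcl2l13 and Bnip3, both mitochondrial membrane proteins that can recruit the autophagy machinery, were highest at 1.87 ± 0.31 and 1.70 ± 0.16 (SE; limma adjusted p = 0.0112 and 0.00402). Bok, a relative of the effectors, stood at 2.61 and 2.40 in FLAG IP, against 4.50 and 4.46 in input (log2 fold change -1.97 ± 0.17, limma adjusted p = 0.00395). Bcl2l2, whose pro-survival product BCL-W male mice need to make sperm, was lower at -1.41 ± 0.16 (limma adjusted p = 0.00515), a call lost without input replicate 1 or 2. Its second probe, at -1.27 ± 0.62, was not called (limma adjusted p over all probes = 0.172).

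Downstream of the mitochondrion, 18 of 19 genes of the apoptosome, the caspases and their inhibitors were tested, and 1 was called higher and 7 lower (median -0.42). Calls over all genes tested were 28.0% higher and 25.4% lower. Casp8, the initiator caspase of death receptors, was lowest, at -1.27 and -1.40 in FLAG IP, against 0.74 and 0.73 in input (log2 fold change -2.06 ± 0.16 SE, limma adjusted p = 0.00381). Htra2, a mitochondrial protease that is released with cytochrome c, followed at -1.93 ± 0.19 (limma adjusted p = 0.00428). Birc6, a very large inhibitor of apoptosis protein, was the gene called higher, at 0.73 ± 0.20 (limma adjusted p = 0.0396). That call was lost without input replicate 1 or 2 (limma adjusted p = 0.345 and 0.321). Birc2, another inhibitor, had a fold change of 0.74 ± 0.45 that was not called (limma adjusted p = 0.235).

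Pmaip1 and Bbc3 are textbook targets of p53. Of 12 further genes of the p53 axis, all tested, 9 were called higher in FLAG IP by limma, 0 lower (also 0 at an unadjusted p under 0.05) and 3 not called, with a median of 1.57. Among all genes tested, 28.0% were called higher and 25.4% lower, and the list was chosen with earlier results of these data known. Trp63, a p53 relative, stood at -2.05 and -2.49 in FLAG IP, against -4.72 and -4.73 in input (log2 fold change 2.45 ± 0.22 SE, limma adjusted p = 0.00398). Its second probe, at 1.27 ± 0.48, was not called (limma adjusted p over all probes = 0.106). Mdm2, the ubiquitin ligase that limits p53, stood at 3.85 and 4.29 in FLAG IP, against 1.66 and 1.80 in input (log2 fold change 2.34 ± 0.22 SE, limma adjusted p = 0.00411), and its second probe gave 2.25 ± 0.22. Normexp background correction ended the calls of Trp63 and Mdm2 (limma adjusted p = 0.0691 and 0.0542). Zmat3 and Aen, p53 targets that encode an RNA-binding protein and an exonuclease, were lowest in the list at -0.56 ± 0.22 and -0.48 ± 0.25, and neither was called (limma adjusted p = 0.0969 and 0.176). The p53 genes and these BCL2 family genes come from the same comparison and the same 4 arrays. A part of p53 in the values of Pmaip1 and Bbc3 was not tested.

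The death receptor pathway was called in both directions, with 2 genes higher and 3 lower of 7 tested among 10 listed (median -0.11). Calls in both directions were also common over all genes tested, with 28.0% higher and 25.4% lower. Fas, a death receptor, stood at -0.10 and 0.01 in FLAG IP, against -3.34 and -2.98 in input, a log2 fold change of 3.11 ± 0.20 (SE, limma adjusted p = 0.00381). Tnfrsf10b, a receptor for TRAIL, was higher at 1.29 ± 0.22 (limma adjusted p = 0.0117) and on both its other probes (1.84 and 2.15), and its call by gene was lost without input replicate 1 or 2 (limma adjusted p = 0.139 and 0.0809). Ripk1 and Fadd, a kinase and an adaptor that receptors bind, were lower at -1.99 ± 0.37 and -1.88 ± 0.20 (limma adjusted p = 0.0153 and 0.00461). For Ripk1 and Fadd only 1 of the 2 FLAG IP arrays was well above background.

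Among 23 genes that act on the family from upstream, such as kinases, transcription factors, ubiquitin enzymes and mitochondrial channels, 9 were called higher and 5 lower (median 0.21). Over all genes tested the shares were 28.0% higher and 25.4% lower. Foxo1, a transcription factor that can induce Bcl2l11, stood at 4.52 and 5.14 in FLAG IP, against 2.04 and 2.03 in input (log2 fold change 2.80 ± 0.27 SE, limma adjusted p = 0.00414), and its other probe gave 2.45 ± 0.20. Akt1, a kinase that phosphorylates BAD and FOXO1, stood at 2.21 and 2.25 in FLAG IP, against 4.72 and 4.72 in input (log2 fold change -2.49 ± 0.15 SE, limma adjusted p = 0.00381). The other Akt1 probe, at -1.31 ± 0.59, was not called (limma adjusted p over all probes = 0.149). Vdac3, a channel of the outer membrane, was lower at -1.68 ± 0.16 (limma adjusted p = 0.00414), a call just lost without input replicate 2 (limma adjusted p = 0.0514). Mapk8, which encodes the stress kinase JNK1, was higher at 2.27 ± 0.34 (limma adjusted p = 0.00915), but of its 3 other probes 1 was called higher, 1 lower (-1.33, limma adjusted p over all probes = 0.0374) and 1 was not called.

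Genes that keep germ cells alive by other routes showed no call in favour of FLAG IP: of 6 tested in limma, 0 were called higher (also 0 at an unadjusted p under 0.05), 2 lower and 4 not called (median -0.46). The shares over all genes tested were 28.0% higher and 25.4% lower. Kitl, the KIT ligand that somatic cells make, was lower at -1.57 ± 0.20 (limma adjusted p = 0.00616). The other Kitl probe, at -0.80 ± 1.42, was not called (limma adjusted p over all probes = 0.677). With the mean of the Kitl probes the call was lost (-1.19, limma adjusted p = 0.208). Dnd1, a germ cell RNA-binding protein, was lower at -0.78 ± 0.19 (limma adjusted p = 0.0325). The Kitl and Dnd1 calls were both lost without input replicate 1 (limma adjusted p = 0.0510 and 0.261) or 2 (0.0715 and 0.339). Kit and Nanos3 had fold changes of 0.43 ± 0.26 and -0.36 ± 0.19 and were not called (limma adjusted p = 0.226 and 0.173). Of the called genes named from these lists, Bok, Htra2, Fas, Akt1 and Vdac3 kept their call under normexp background correction, and the others lost it there.

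**Figure D4:**
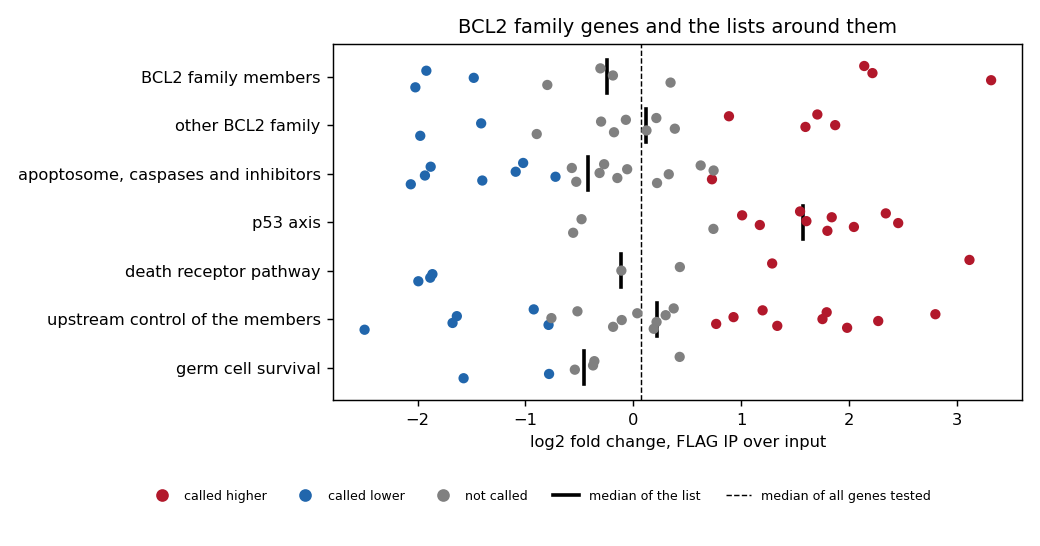
Log2 fold change of FLAG IP over input (x axis) of every tested gene in the BCL2 family and in 6 lists around it; each point is a gene, coloured by call, the black bar is the median of the list and the dashed line the median of all genes tested, 0.07. The 10 members spread from -2.02 to 3.32 around a median of -0.25, while the p53 axis has 9 of 12 genes called higher. Of all genes tested, 28.0% were called higher.

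When every probe was fitted on its own, 5 of the 16 tested member probes were called higher (3 of Bcl2l1 and 1 each of Pmaip1 and Bbc3) and 4 lower (2 of Bcl2 and 1 each of Bak1 and Bad). Over all 26529 probes, 23.2% were called higher and 22.4% lower. In the authors' deposited table, the ratio of FLAG IP to input was 9.15 for Pmaip1, 4.28 for Bbc3 and 4.07 for the brightest Bcl2l1 probe, and 0.331, 0.227 and 0.244 for the probes that stand for Bcl2, Bak1 and Bad. On the log2 scale the ratios of the authors' deposited table lay 0.12 below the fold changes given here in the median of all tested probes, with the same sign for all 16 tested probes of the family.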

How the data were processed

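RNA from 2 FLAG IP and 2 input samples was read on one-colour Agilent arrays. The submitters' processing notes name Agilent Feature Extraction 9.5. The scanner files that the authors deposited give a spot's intensity, linear and already corrected for background per the file headers, and mark outliers and spots well above background. For every probe, the authors' deposited table has the FLAG IP to input ratio and a raw signal per group. That raw signal equals the mean of the 2 arrays within 1% for 41089 (FLAG IP) and 41122 (input) of 41174 probes, so these are pooled values with no SD. Its 0 unused per-sample columns and the p-values it holds play no part here. No source used here gives the normalization of the ratio.

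Values are log2 of the processed signal minus that of the array's 75th percentile over 43379 non-control spots. Outlier spots (90 and 104 on the FLAG IP arrays, 61 and 52 on the input arrays, 5 of them of the members) were left out, and spots of a probe were averaged. A probe was tested if at least 1 group had it well above background on both its arrays, and the brightest tested probe stood for its gene. Probes were named by gene ID (31004), older symbol (309) or the file's own name (1263), through the RefSeq table of assembly GRCm38.p6; 8598 had no name. FLAG IP was compared with input in limma 3.58.1 (R 4.3.3; lmFit and eBayes, no block, 2 residual and 2.08 prior degrees of freedom, Benjamini-Hochberg over all genes or all probes, threshold 0.05). For a dim probe, the bright group's mean was also set against a raised mean of the dim group. On each dim array the higher of the probe's own value and the dimmest value well above background was taken. This is not a strict bound, since a probe can lie above that dimmest value without being well above background. The number of arrays limits the precision. Only the limma fit and its calls were run on simulated data, not the steps before them.

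The members and lists were chosen with earlier results of these data known. From the lists around the family, the genes with the 2 highest and 2 lowest fold changes were named, with Nanos2. The test of differences between probes was added after seeing the data. Normexp (offset 50) was run on the median signal of the spots. Replicate numbers were not taken as pairs: over genes, the deviations of same-numbered arrays correlated at 0.0498, and the 2 pairs are fewer than such a check needs. Only input replicate 1 came from a separate slide. No protein, transcript or probe sequence was at hand, so no sequence is shown.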

Additional observations from a re-analysis of the deposited data

How the results depend on the processing

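Normexp background correction called 1272 genes higher and 1398 lower in FLAG IP, with 3 members higher and 0 lower (2 lower at an unadjusted p under 0.05); with all probes fitted on their own, limma made 0 calls there (4748 higher and 3509 lower at an unadjusted p under 0.05). Without scaling, limma called 0 genes higher and 0 lower (0 and 4047 at an unadjusted p under 0.05), and 0 members in either direction (0 and 3 at an unadjusted p under 0.05). The median of all genes moved by 0.31 under normexp, -0.13 under median centring, -2.49 without scaling and 0.48 with no filter on dim probes; values for the first 3 are relative to that shift. Relative to it, normexp turned the sign of Mcl1 (-0.51; by probe -0.79 and -0.75), Bcl2l11 (0.44; by probe 0.17), Nanos3 (0.32), Kit (-0.17) and the dimmer Bad probe (0.46), none of them called. Bcl2 (-1.62), Bak1 (-1.59) and Bad (-0.07) lost their call under normexp, and the cause was not tested. The limma test there was of their values before the shift (-1.31, -1.28 and 0.24). Slide as a block, which rests on 3 arrays, gave 1431 genes higher and 1545 lower and 3 and 2 members. With the replicate block, 4130 genes were higher and 3875 lower, and the members' calls did not change, while Birc6 and Dnd1 lost theirs (limma adjusted p = 0.0745 and 0.0630). Leaving out each array in turn gave 1431 to 6845 genes higher, 1545 to 6212 lower, and 3 to 4 members higher and 2 to 5 lower; where 1 array of a group is left, it is assumed to vary like the other group. The highest counts came without FLAG IP replicate 1 (6204 and 6212) or 2 (6845 and 5705), and the lowest without input replicate 1 (1431 and 1545) or 2 (1535 and 1727), where limma's fits by probe gave 0 calls (3544 or more higher and 3918 or more lower at an unadjusted p under 0.05). Bax ran from -0.50 to 0.12 by gene and by probe, and the probe differences of Bad from -0.44 to 1.27 and of Mcl1 from -0.17 to 0.22. Bid was called lower without FLAG IP replicate 2 (-0.51, limma adjusted p = 0.0106). Quantile normalization called 4077 genes higher and 3706 lower; marked spots kept, trend and robust settings, all 4 arrays above background (8 members tested), the mean of probes and no filter stayed within 1.5 times the gene counts reported. With no filter, limma's fit by probe made 0 calls (7638 higher and 5892 lower at an unadjusted p under 0.05). The dim FLAG IP replicate 1 limits Bad, Bcl2l11 and the untested probes of Bcl2 and Bcl2l11.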
